A study of Homo sapiens with 6 samples.

Results

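Laminins are large glycoproteins of basement membranes, the sheets of matrix under epithelia and around vessels. Each is a heterotrimer of an alpha, a beta and a gamma chain, and its name gives the numbers of these chains in that order, so that laminin-411 holds the products of LAMA4, LAMB1 and LAMC1. A beta and a gamma chain pair inside the cell, and an alpha chain must join them before the trimer is secreted. The alpha chain also carries the globular domains that bind integrins and dystroglycan. The retinal pigment epithelium (RPE) lays down the inner layer of Bruch's membrane, where laminins anchor it.

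The 9 genes examined are the alpha chain genes LAMA1 to LAMA5, the beta chain genes LAMB1 to LAMB3 and the gamma chain gene LAMC1, chosen as a family by name. They are 9 of the 37902 genes in the deposited values, and all 9 had a mean normalised count of at least 10, the limit for testing. LAMA4 was known beforehand, since the study names it from these same samples. WT is the parental ARPE-19 line, an established human RPE line, and POLDIP2 KO is the line made from it by lentiviral SpCas9 with an sgRNA against POLDIP2 and puromycin selection, expanded without a step of cloning being described. Each line gave 3 biological replicates, labelled 1 to 3 and taken at day 3 of regular maintenance, and the polyadenylated RNA was sequenced. No line with Cas9 and a control sgRNA is among the libraries, so the knockout and the history of the line cannot be told apart.

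Depth was 31532797 to 45795509 recovered reads per library. POLDIP2 had 3919 to 4827 normalised counts in WT and 1063 to 1248 in POLDIP2 KO, so every library followed its label. The replicate 1 libraries of both lines stood apart on the first principal component (30.9% of the variance), with scores of 57.5 and 48.2 against -39.8 to -4.77 for the others. Of the 12 RPE markers examined, RPE65 and TTR were at 0 in every library and TYR was at or under 3 reads. MITF, OTX2, KRT8 and KRT18 were expressed at the highest levels. BEST1, RDH5, SERPINF1, PMEL and RLBP1 were lower, with means over the 6 libraries of 388, 246, 100, 75.2 and 34.9 normalised counts. SERPINF1 had 103 to 168 in WT and 49.6 to 101 in POLDIP2 KO, without overlap. Of the 9 RPE markers tested, 0 were called by limma, against 0.17% of all genes. Among 8 endothelial markers, CDH5, EMCN, ERG and CLDN5 were at or under 3 reads in every library. The other 4, PECAM1, VWF, KDR and TEK, were above 3 reads in at least 1 library, with KDR at 161 normalised counts in WT replicate 1. The 8 summed to 39.7 to 199 normalised counts in WT and 45.7 to 141 in POLDIP2 KO. The 7 smooth muscle and pericyte markers summed to 4073 to 7629 in WT and 3627 to 9861 in POLDIP2 KO, and the part of other cell types in the results was not tested. In such bulk RNA, fewer cells that express a gene and less RNA per cell cannot be told apart.

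The data showed a different mix of alpha chains in the lines. LAMA4 was 2.66-fold higher and LAMA5 2.02-fold lower in POLDIP2 KO by limma on log2(normalised count + 1), while LAMA3 differed by less than its spread. LAMB1 and LAMB2 were 1.47-fold and 1.24-fold higher, and LAMC1, the most abundant chain, was 1.12-fold higher with overlapping libraries. None of the 9 genes had a limma adjusted p value under 0.05 (Benjamini-Hochberg over all 14684 genes tested) together with a fold change over 1.5, and 4 of the 9 had an unadjusted p value under 0.05. Over all genes, limma called 0.17% (0.0817% higher, 0.0885% lower in POLDIP2 KO) and gave 6.48% an unadjusted p value under 0.05. When replicate number entered limma as a block, 1 of the 9 was called, LAMA4, against 0.204% of all genes (0.116% higher, 0.0885% lower). Correlations between the lines bore out the replicate numbers clearly for replicate 1 only. On recovered reads, DESeq2 called LAMA4 and LAMA5 (2 of 9, against 1.69% of all genes, 0.756% higher and 0.933% lower), and the edgeR quasi-likelihood test called 0 of 9 (against 0.116%). In 5 of the 9 the 3 libraries of one line lay entirely above or below those of the other, 4 of them higher in POLDIP2 KO, against 10.9% of all genes (5.46% higher, 5.44% lower). The median log2 fold change was 0.31 over the 9 genes and -0.00029 over all genes tested.

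**Figure D1:**
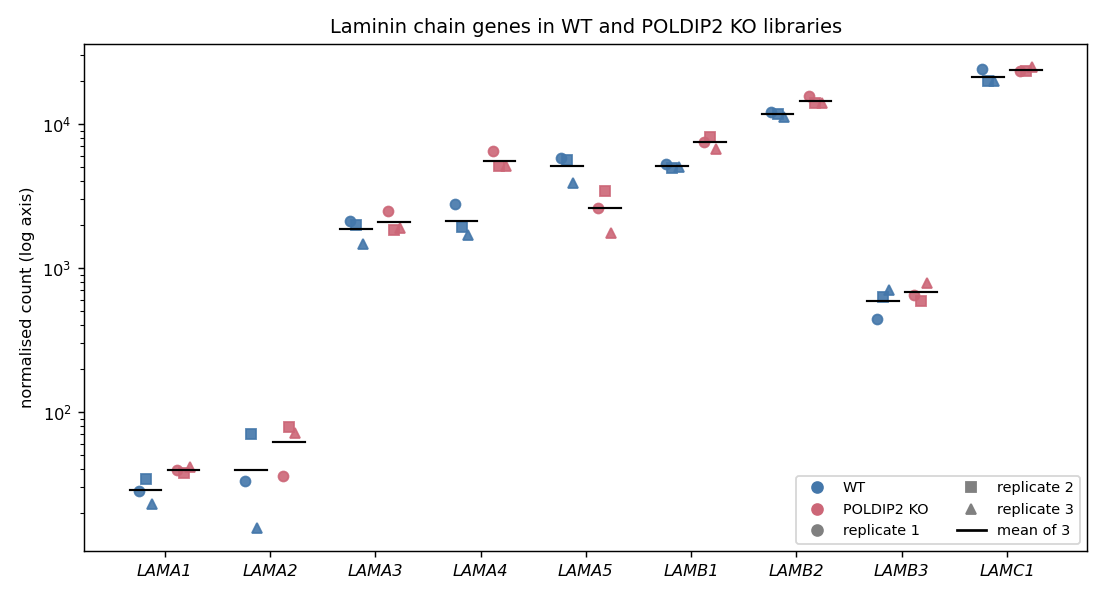
Normalised count of each laminin chain gene on a log axis, with a point for each library (colour for line, shape for replicate number) and a bar for the mean of 3 libraries. The POLDIP2 KO points lie above all WT points for LAMA1, LAMA4, LAMB1 and LAMB2 and below them for LAMA5, and they overlap for the other 4 genes.

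Gene positions are on GRCh38, and values are given in the order of replicates 1, 2 and 3. LAMA4 (ENSG00000112769; chromosome 6, minus strand, 112107931 to 112254939) was the chain with the largest difference between the lines. It encodes the alpha chain typical of vessel walls and mesenchymal tissues, which lacks the long N-terminal arm of the other large alpha chains. The WT libraries held 2777, 1910 and 1687 normalised counts, and the POLDIP2 KO libraries held 6491, 5123 and 5074. The lowest POLDIP2 KO library was well above the highest WT library, and replicate 1 was the highest library within each line. By limma, POLDIP2 KO exceeded WT by 1.41 on the log2 scale (standard error 0.203, 95% interval 0.93 to 1.89) at an adjusted p value of 0.0772, and LAMA4 ranked 42 of all genes tested by p value. Same-numbered libraries differed by 1.22, 1.42 and 1.59 on the log2 scale in pairs 1, 2 and 3, so the difference was of like size in every pair. Blocking on replicate number, the interval narrowed to 1.16 to 1.67 and the limma adjusted p value was 0.0425. DESeq2 on recovered reads gave an adjusted p value of 2.71e-07, and edgeR gave 0.111 without and 0.0597 with the block. Over the limma settings with all libraries and no block, the adjusted p value ranged from 0.0623 to 0.154, and with 1 library left out from 0.0624 to 0.3.

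LAMA5 (ENSG00000130702; chromosome 20, minus strand, 62307955 to 62367312) encodes the alpha chain of laminin-511 and laminin-521, the common laminins of mature epithelial basement membranes. Normalised counts of 5844, 5645 and 3895 were found in WT, against 2618, 3421 and 1748 in POLDIP2 KO. Every POLDIP2 KO library was below every WT library, and the gap between the nearest libraries, WT replicate 3 and POLDIP2 KO replicate 2, was small beside the spread within each line. Its limma log2 fold change of -1.01 (standard error 0.269, 95% interval -1.65 to -0.38) had an adjusted p value of 0.366. The same-numbered pairs differed by -1.16, -0.72 and -1.16, and with the block the limma adjusted p value was 0.0591, still above the threshold. DESeq2 gave 0.0231. LAMA5 shares 244 exonic bases with ADRM1 on the opposite strand, which had means of 3332 and 3188 normalised counts in WT and POLDIP2 KO. The kit marks strand, but whether the counting used it is not given in the sources used here.

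The start regions of these genes differ in base composition. RefSeq windows of 300 bases around the start (GRCh38.p14, 250 before and 50 after) matched 8 of the 9 genes, LAMA1 being without one. The LAMA4 window holds 8 CpG and is 51.3% G and C, the LAMA5 window 41 CpG and 82.7%, and the LAMB1 window 35 CpG and 71.0%, against a median of 14 CpG and 58.7% in all 35116 windows. The window of LAMC1, whose libraries overlapped between the lines, is like that of LAMA5, with 41 CpG and 79.0%. The Sp1 box GGGCGG, searched on both strands, is in the windows of 6 of the 8 genes, all but LAMA2 and LAMA4, and in 45% of all windows. It occurs 5 times for LAMA5, 4 times for LAMB1 and 3 times for LAMC1. The box TATAAA was in 0 of the 8 genes' windows (11.5% of all). The AP-1 sequence TGANTCA was in LAMA3 and LAMB3 (7.71% of all), and the NF-kB consensus in LAMB3 (5.91% of all). The shares of all are per window, and LAMB3 has 3 windows. Its NF-kB matches are in windows 1 and 2, which overlap, and its AP-1 match is in window 3. The LAMA3 and LAMA4 windows and window 3 of LAMB3 are at starts inside the gene and lie wholly within its GENCODE span. Printed here, 5′ to 3′ on the gene's strand, is the longest stretch before the RefSeq start that no GENCODE exon covers. It is given for the chains with the largest difference in either direction and for LAMB1, with GGGCGG or its reverse complement in capitals. The LAMA4 stretch is chr6:112254723-112254785, the LAMA5 stretch chr20:62367313-62367562 and the LAMB1 stretch chr7:108003214-108003411, all on the minus strand.
LAMA4: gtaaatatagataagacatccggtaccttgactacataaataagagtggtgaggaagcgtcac
LAMA5: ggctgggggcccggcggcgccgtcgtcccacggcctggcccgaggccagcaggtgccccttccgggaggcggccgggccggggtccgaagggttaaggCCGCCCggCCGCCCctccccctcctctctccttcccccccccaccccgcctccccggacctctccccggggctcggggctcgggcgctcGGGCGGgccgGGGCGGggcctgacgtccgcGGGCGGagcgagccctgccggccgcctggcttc
LAMB1: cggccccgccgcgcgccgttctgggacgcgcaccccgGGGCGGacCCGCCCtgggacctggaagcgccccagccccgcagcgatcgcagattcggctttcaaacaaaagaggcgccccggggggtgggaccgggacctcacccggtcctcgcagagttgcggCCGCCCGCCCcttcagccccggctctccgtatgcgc
The stretches are 63 bases long for LAMA4, 250 for LAMA5 and 198 for LAMB1, so their numbers of matches are not directly comparable. That of LAMA4 lies inside the gene, 218 to 156 bases before the RefSeq start, and holds no GGGCGG. These matches describe the letters of the windows and are not sites of binding.

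LAMA3 (ENSG00000053747; chromosome 18, plus strand, 23689453 to 23956222) encodes the alpha chain of the laminin of hemidesmosomes. WT held 2134, 1991 and 1459 normalised counts, and POLDIP2 KO held 2498.5, 1841 and 1885. The lines overlapped, and pair 2 ran against the other pairs. The log2 fold change was 0.16 with a 95% confidence interval from -0.28 to 0.61 (limma adjusted p = 0.9998), and without WT replicate 3 it was -0.0047. The gene has more than one start, and the gene totals do not part the short and the long form.

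LAMA1 and LAMA2 were expressed at a low level. LAMA1 (ENSG00000101680; chromosome 18, minus strand, 6941742 to 7117797), the chain of the laminin of early embryos, had 28.3, 34.1 and 23.0 normalised counts in WT and 39.4, 37.4 and 41.7 in POLDIP2 KO. The lines did not overlap, but the log2 fold change of 0.47 had an interval from -0.29 to 1.24 (limma adjusted p = 0.9998). LAMA2 (ENSG00000196569; chromosome 6, plus strand, 128883138 to 129516566), the chain of muscle and peripheral nerve, had 33.1, 70.2 and 15.7 in WT and 35.7, 78.1 and 71.5 in POLDIP2 KO. Its log2 fold change of 0.79 (interval -0.61 to 2.19, limma adjusted p = 0.9998) rested on pair 3, which differed by 2.12 against 0.11 and 0.15 in pairs 1 and 2, and it was 0.27 without WT replicate 3.

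Among the beta chains, LAMB1 (ENSG00000091136; chromosome 7, minus strand, 107923799 to 108003213) had the largest difference. WT held 5232, 4960 and 5043 normalised counts, against 7533, 8158 and 6748 in POLDIP2 KO. The 3 WT libraries were close to each other, and all POLDIP2 KO libraries lay above them. Its log2 fold change of 0.55 (standard error 0.104, interval 0.31 to 0.80) had a limma adjusted p value of 0.167, or 0.105 with the block, and is under the fold change threshold of 1.5. DESeq2 on recovered reads gave it an adjusted p value of 0.000515. LAMB1 shares 300 exonic bases with DLD on the opposite strand, and DLD had means of 3055 and 3024 normalised counts in WT and POLDIP2 KO.

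LAMB2 (ENSG00000172037; chromosome 3, minus strand, 49121114 to 49133118), which encodes the beta chain of neuromuscular, glomerular and retinal basement membranes, had 12155, 11738 and 11223 normalised counts in WT and 15560, 13946 and 14050 in POLDIP2 KO. The lines did not overlap, and the pairs differed by 0.36, 0.25 and 0.32 on the log2 scale. The log2 fold change was 0.31 (interval 0.08 to 0.54, limma adjusted p = 0.531, and 0.186 with the block). LAMB3 (ENSG00000196878; chromosome 1, minus strand, 209614870 to 209652425), the beta chain of the hemidesmosome laminin, had 445, 630 and 699.6 in WT and 652, 592 and 786 in POLDIP2 KO. The lines overlapped, and its log2 fold change of 0.21 had an interval from -0.28 to 0.70 (limma adjusted p = 0.9998).

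LAMC1 (ENSG00000135862; chromosome 1, plus strand, 183023420 to 183145592) encodes the gamma chain found in most laminins. WT held 24186, 19765 and 19889 normalised counts and POLDIP2 KO 23290, 23300 and 24867. WT replicate 1 was as high as the POLDIP2 KO libraries, and the log2 fold change was 0.17 with an interval from -0.12 to 0.45 (limma adjusted p = 0.9998), so a rise of 1.5-fold lay outside it.

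**Figure D2:**
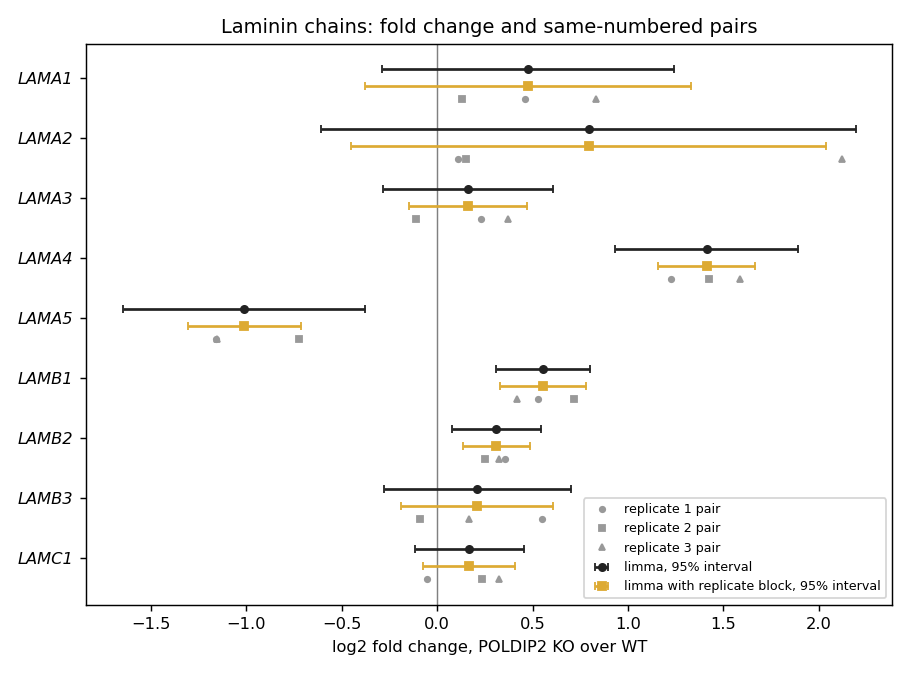
Log2 fold change of each laminin chain gene, POLDIP2 KO over WT, with the 95% interval of limma without (black) and with (yellow) the replicate number as a block, and the differences of the 3 same-numbered pairs in grey. LAMA4 at 1.41, LAMA5 at -1.01, LAMB1 at 0.55 and LAMB2 at 0.31 have intervals that leave out 0 in both fits.

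Same-numbered libraries differed in the same direction in all 3 pairs for 6 of the 9 genes, 5 of them higher in POLDIP2 KO (LAMA1, LAMA2, LAMA4, LAMB1 and LAMB2) and 1 lower (LAMA5), against 32.7% of all genes tested (17.0% higher, 15.7% lower). LAMA3, LAMB3 and LAMC1 had 1 pair in the other direction. All of the 6 but LAMA2 had no overlap between the lines, so any pairing would agree and the count is not separate support.

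Levels of different chains were compared per length, as normalised counts per kb of the canonical transcript of GENCODE release 44. In WT, LAMC1 came first with 2684 ± 318 per kb (mean ± SD, n = 3 libraries), followed by LAMB2 with 2057 ± 82.0 and LAMB1 with 899 ± 24.7. LAMA5 (449 ± 93.9), LAMA4 (294 ± 79.6), LAMA3 (175 ± 33.4) and LAMB3 (147 ± 32.8) came next. LAMA5 was above LAMA4 in each WT library, although the ranges of both over the libraries overlapped, while LAMA3 and LAMB3 changed places between WT libraries. LAMA2 (4.09 ± 2.88) and LAMA1 (2.95 ± 0.578) were far below. In POLDIP2 KO the first 3 places were the same, LAMA4 followed with 769.6 ± 111.25 per kb, and LAMA5 lay in the range of LAMA3 (227 ± 73.2 and 195 ± 34.5). The libraries of LAMA5, LAMA3 and LAMB3 overlapped there. LAMA3 was divided by a canonical length of 10.65 kb, and its gene total does not part the short and the long form. Reads of the short form would make its level per kb too low, which also bears on the shares and trimer limits below.

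**Figure D3:**
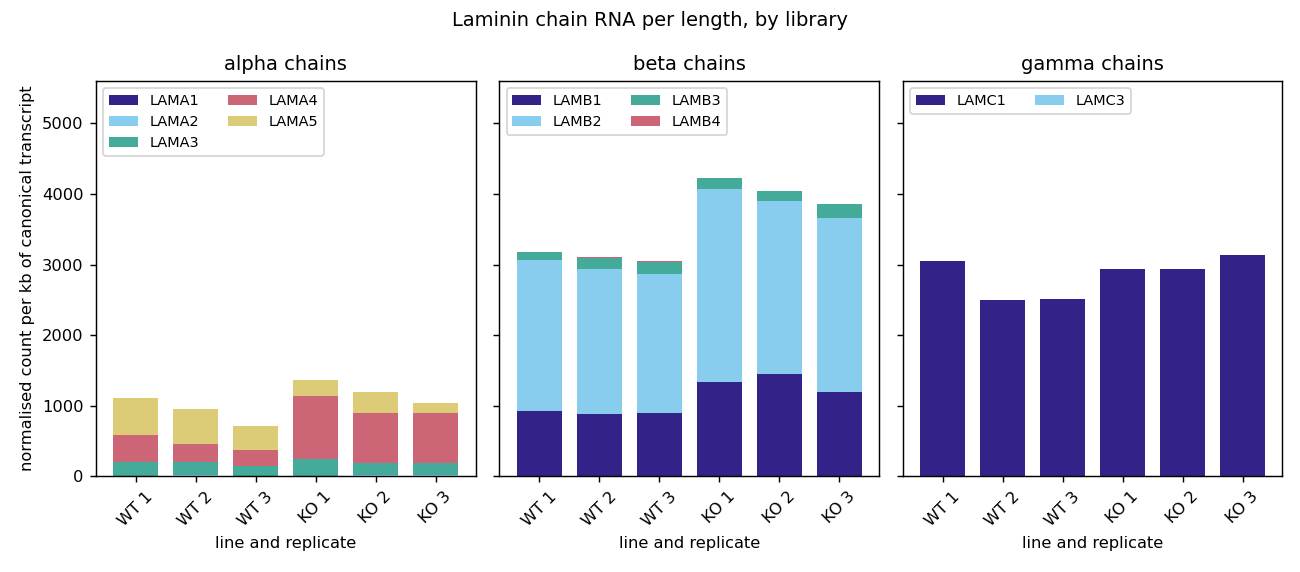
Stacked bars of normalised counts per kb of canonical transcript for the alpha, beta and gamma chain genes in each library, with LAMB4 and LAMC3 added. The alpha sum is 715 to 1102 in WT and 1044 to 1369 in POLDIP2 KO, and within it LAMA4 takes 27.7% to 34.9% in WT and 59.4% to 67.3% in POLDIP2 KO.

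Within the alpha chain RNA per length, LAMA4 took 34.9%, 27.7% and 32.6% in WT and 65.6%, 59.4% and 67.3% in POLDIP2 KO. LAMA5 took 46.4%, 51.7% and 47.7% in WT and 16.7%, 25.1% and 14.7% in POLDIP2 KO. The leading alpha chain was thus LAMA5 in all 3 WT libraries and LAMA4 in all 3 POLDIP2 KO libraries. The mean share of LAMA4 was 31.7% ± 3.69 in WT and 64.1% ± 4.13 in POLDIP2 KO (SD, n = 3 libraries each), a difference of 32.4 percentage points (two-sided exact permutation p = 0.1, the smallest that 3 libraries against 3 allow). The mean shares were 37.1% and 69.2% per coding length and 26.5% and 58.6% per merged exon length. The mean share of LAMA3 was 19.0% in WT and 16.2% in POLDIP2 KO, again without overlap (exact permutation p = 0.1). Its level per kb overlapped between the lines, with means of 175 and 195, so the lower share is not a lower level of LAMA3. The alpha sum itself overlapped between the lines, with 924 ± 195 per kb in WT and 1202 ± 163 in POLDIP2 KO (exact permutation p = 0.2). The beta sum did not overlap (3107 ± 65.0 and 4047 ± 185 per kb, exact permutation p = 0.1).

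Ratios within a library do not depend on how libraries were scaled to each other. The ratio of LAMA4 to LAMA5 in normalised counts was 0.475, 0.338 and 0.433 in WT, and 2.48, 1.498 and 2.90 in POLDIP2 KO. It was below 1 in each WT library and above 1 in each POLDIP2 KO library, a difference of 2.42 on the log2 scale. The ratio of LAMA4 to LAMB1 was 0.531, 0.385 and 0.335 in WT and 0.862, 0.628 and 0.752 in POLDIP2 KO, and that of LAMA4 to LAMA3 was 0.960 to 1.30 in WT and 2.60 to 2.78 in POLDIP2 KO. The ratio of LAMB1 to LAMB2 was 0.422 to 0.449 in WT and 0.480 to 0.585 in POLDIP2 KO. Of 6 ratios compared, 5 had no overlap between the lines. Each of these had an exact permutation p of 0.1, the smallest this design allows (0.12 adjusted over the 6). All 5 hold LAMA4 or LAMB1, which did not overlap between the lines by themselves, so the count is not separate support. The ratio of LAMB2 to LAMC1 overlapped (exact permutation p = 0.2).

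Which heterotrimers the RNA levels allow was read from the scarcest of the 3 chains, per kb. The 13 trimers considered hold LAMB1 or LAMB2 with LAMC1 or LAMC3, and trimers with LAMB3 were left out. Of the 13, 10 had all chains above 3 reads in all 6 libraries. The other 3 need LAMC3, which had 2, 5 and 2 recovered reads in WT and 0, 0 and 2 in POLDIP2 KO, so laminin-213, laminin-423 and laminin-523 lacked a chain above 3 reads in all libraries except WT replicate 2. In the 10 with all chains detected, the alpha chain was the scarcest in every library, per canonical transcript and per coding length. Per merged exon length this held for 8 of the 10. The exceptions were laminin-411, where LAMB1 lay below LAMA4 in some POLDIP2 KO libraries, and laminin-511, where LAMB1 lay below LAMA5 in every WT library. Per canonical transcript, the limit for laminin-411 and laminin-421 was LAMA4, at 294 per kb in WT and 769.6 in POLDIP2 KO, and for laminin-511 and laminin-521 it was LAMA5, at 449 and 227. Laminin-311 and laminin-321, limited by LAMA3, had 175 and 195 per kb. For a trimer of LAMA3 with LAMB3 the alpha chain would not be the scarcest by these means, since LAMB3 had 147 and 169 per kb. Laminin-111 and laminin-121, limited by LAMA1, and laminin-211 and laminin-221, limited by LAMA2, stood at 2.95 to 6.37 per kb in the means of either line. These are levels of RNA, the same beta and gamma chains serve several trimers, and no protein was measured in these files.

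Laminin receptors showed no call. Of 15 genes tested, 0 were called by limma, by limma with the block, by edgeR or by DESeq2, 2 had an unadjusted limma p value under 0.05, and the median log2 fold change was 0.11. Over all genes these called 0.17%, 0.204%, 0.116% and 1.69%, so no call among 15 genes is near these shares. The unadjusted limma p value was under 0.05 for 6.48% of all genes. ITGA1, an integrin alpha subunit for collagen and laminin, had means of 392 and 610 normalised counts in WT and POLDIP2 KO without overlap, a log2 fold change of 0.65 (interval 0.18 to 1.11, limma adjusted p = 0.493). SDC4, a heparan sulphate proteoglycan of focal adhesions, had a log2 fold change of 0.40 (interval 0.11 to 0.68) with the same adjusted p value. ITGB4, the integrin beta subunit of hemidesmosomes, and ITGA7, a laminin-binding alpha subunit, had log2 fold changes of 0.39 and -0.26, with overlapping libraries.

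Of the 20 basement membrane partners, 18 passed the filter on low values, 0 were called by limma, 3 had an unadjusted p value under 0.05, and the median log2 fold change was 0.02. Over all genes, limma called 0.17% and gave 6.48% an unadjusted p value under 0.05. HSPG2, which encodes perlecan, had 25972, 18665 and 24304 normalised counts in WT and 48267, 32383 and 31801 in POLDIP2 KO. It was higher in every POLDIP2 KO library, with a log2 fold change of 0.69 (interval 0.20 to 1.19, limma adjusted p = 0.477). NID2, a nidogen that links laminin to type IV collagen, had 727, 718 and 1868 in WT and 2230, 1791 and 3575 in POLDIP2 KO. WT replicate 3 overlapped the POLDIP2 KO libraries, yet the pairs differed by 1.62, 1.32 and 0.94 on the log2 scale, and the limma adjusted p value was 0.547, or 0.0591 with the block. EFEMP1, a fibulin tied to drusen-forming macular disease, differed by 0.63 on the log2 scale, with a limma adjusted p value of 0.584, or 0.0668 with the block. VTN, whose gene lies beside POLDIP2, had a log2 fold change of 0.89 with an interval from -0.17 to 1.94. DESeq2 with the block, alone among the settings run, called 4 of the 18 (NID2, HSPG2, COL4A1 and EFEMP1), all higher in POLDIP2 KO, against 2.67% of all genes (1.25% higher, 1.42% lower).

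**Figure D4:**
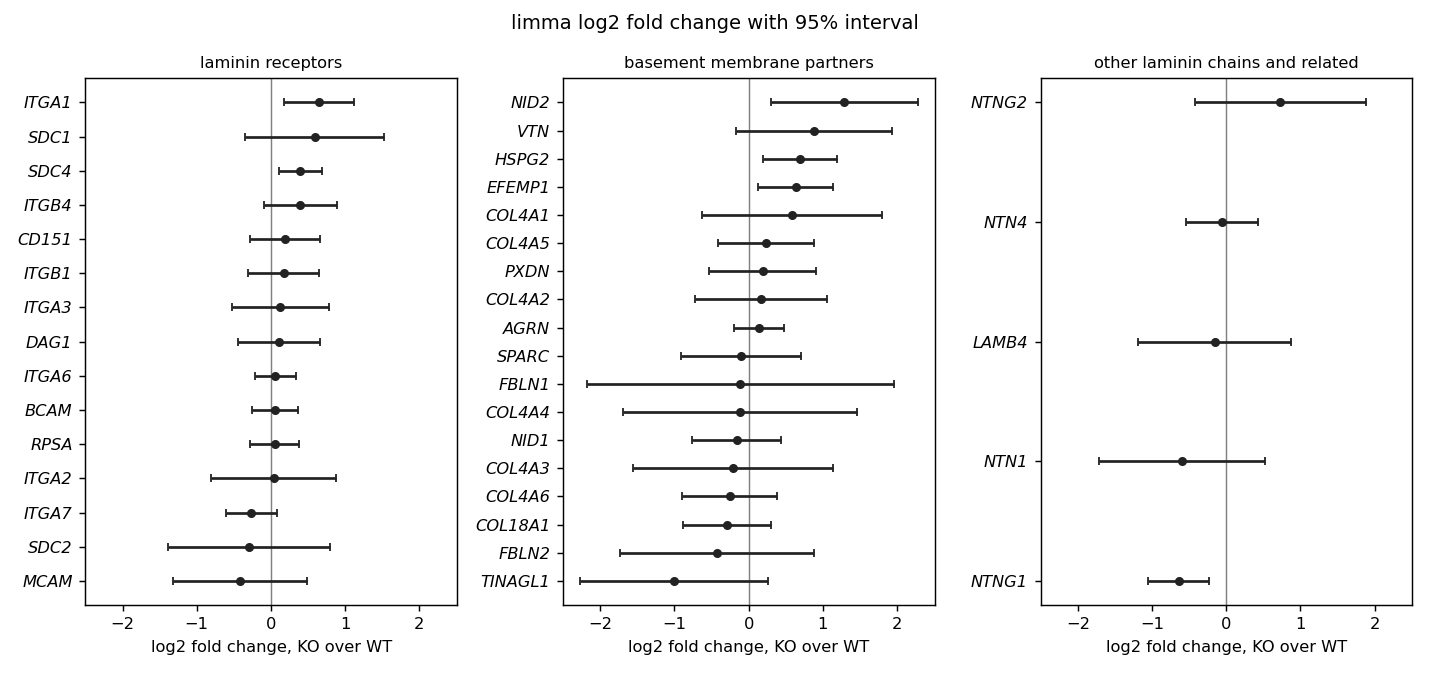
Log2 fold change of POLDIP2 KO over WT with the limma 95% interval, for 15 laminin receptor genes, 18 basement membrane partner genes and 5 of the other laminin chains and laminin-related genes. Among them NID2 at 1.29 is the highest point and TINAGL1 at -1.01 the lowest. No gene of the 3 groups was called by limma, against 0.17% of all genes.

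Of the 10 other laminin chains and laminin-related genes, 7 passed the filter, and 0 were called by limma, with 1 at an unadjusted p value under 0.05 (0.17% and 6.48% of all genes). The median log2 fold change of the 7 was -0.16. NTNG1, a membrane-bound netrin, had 569, 641 and 474 normalised counts in WT and 333, 413 and 331 in POLDIP2 KO. All POLDIP2 KO libraries were lower, with a log2 fold change of -0.64 (interval -1.05 to -0.23, limma adjusted p = 0.383, and 0.148 with the block). DESeq2 with the block called it (adjusted p = 0.0329, against 1.42% of all genes called lower), while DESeq2 without the block gave 0.0927 and edgeR with the block 0.158. NTNG2 and NTN1 had log2 fold changes of 0.73 and -0.60 at 7.56 to 35.1 normalised counts, with intervals that include 0. LAMB4 had a log2 fold change of -0.16 (interval -1.19 to 0.88).

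The genes whose values over the 6 libraries were most like those of LAMA4, by Pearson correlation of log2(normalised count + 1) among 14683 other genes, were CASP1 (0.995), TMEM65 (0.992), CXCL1 (0.992), FKBP7 (0.990) and CDK14 (0.990). All share with LAMA4 the difference between the lines and a highest value in replicate 1 of POLDIP2 KO. CASP1, the inflammatory caspase, had 84.1, 59.2 and 44.9 normalised counts in WT and 282, 225 and 238 in POLDIP2 KO. With 6 libraries in 2 lines these correlations describe the pattern and were not tested.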

How the data were processed

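The deposited signal (POLDIP2 KO and WT, 3 libraries each) is a table of normalised counts for 37902 genes in 6 libraries. Per the submitters' processing notes and the methods, the authors used Salmon 1.8, tximport and DESeq2 1.34.0 with GRCh38. The annotation release and the strand setting are not given in the sources used here. Symbols of 29046 genes came from GENCODE release 44.

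Reads were recovered as multiples of the smallest nonzero value of a library, 31532797 to 45795509 in all. The low chains LAMA1 and LAMA2 had 22 to 46 and 15 to 96 reads per library. All values (100%) were whole multiples within 0.001, but this says little for WT replicate 2 and POLDIP2 KO replicate 3, whose step is near 1. Up to 3 reads counted as not detected.

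The lines were compared with limma 3.58.1 in R 4.3.3 (eBayes with trend, 2-sided) on log2(normalised count + 1), keeping the 14684 genes whose mean reached 10. Adding 1 understates the change of low genes. Calls needed a fold change over 1.5 and, after Benjamini-Hochberg adjustment, p under 0.05. Recovered reads were tested with edgeR 4.0.16 (TMM) and DESeq2 1.42.0. Shares and ratios were compared by exact permutation over libraries with scipy 1.17.1. The limma, edgeR and DESeq2 fits without the block were tested on simulated counts that had no replicate effect. The simulation did not cover the blocked fits, the shares or the ratios.

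Values centred within each line correlated at 0.315, 0.137 and 0.129 between same-numbered libraries, all above the limit of 0.1. WT replicate 3 and POLDIP2 KO replicate 2 reached 0.147, above the same-numbered values for replicates 2 and 3. The numbers thus pair the replicate 1 libraries clearly but do not settle the pairs of the others. An alternative fit blocked on the numbers.

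The members and gene lists were chosen with earlier results of these data known. Named besides the 9 genes were LAMB4, LAMC3, the 4 genes of each list with the smallest limma p value, and the 5 genes most like LAMA4. Of the genes this rule names, 2 are not reported here. COL4A1, TINAGL1 and the expressed or absent markers were named after their values were seen. Alternatives were quantile normalisation, a filter at 50 or none, 0.5 or 5 in place of the added 1, recentring, no trend, robust estimation, the block, other lengths and leaving out each library. Leaving out replicate 1 of both lines, the merged exon length and the scarcest chain under other lengths were added after seeing the data. Of the ratios, only those of LAMA4 to LAMA5 and of LAMA4 to LAMB1 were planned.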

Additional observations from a re-analysis of the deposited data

How the results depend on the processing

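The number of genes called by limma, 25, was 16 with a mean of at least 50, 248 with DESeq2, 392 with DESeq2 and the replicate block, 5 with edgeR and the block, 0 to 5 with 1 library left out (5 without WT replicate 1, 4 without POLDIP2 KO replicate 1 and 0 without any of the others), and 4 without the replicate 1 libraries of both lines. Of the laminin chains, 0 were called by limma, 1 with the replicate block in limma, 2 with DESeq2 and 2 with DESeq2 and the block, and 0 under every other setting, with 4 at an unadjusted p value under 0.05 in limma. DESeq2 with the block called 4 basement membrane partners and 1 laminin-related gene where limma and every other setting called 0 of both. Per merged exon length, the mean of the scarcest chain was 398.5 per kb for laminin-411 in POLDIP2 KO and 273 for laminin-511 in WT, against 769.6 and 449 per canonical transcript. The block changed no other limma call among the listed genes.

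The log2 fold changes kept their direction under every setting for 8 of the 9 chains. That of LAMA3 was -0.0047 without WT replicate 3 and 0.27 at most with another library left out. LAMA4 ranged from 1.26 to 1.62 and LAMA5 from -1.24 to -0.75 with 1 library left out. The difference in the LAMA4 share and both log2 ratios kept their sign under every setting. The lines did not overlap in any of these, so leaving out libraries or pairing them could not change the sign. Paired by replicate number, the share and the ratios have a smallest possible p value of 0.25. LAMA1 gave no value with a mean of at least 50, and no alpha chain was at the floor, so that alternative was not run.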
